A study of Mus musculus with 82 samples.

Results

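The genes described here are the replication-dependent histone genes of mouse chromosome 13, taken as every gene of that chromosome whose symbol begins with Hist1h in the GENCODE M21 annotation of the mm10 genome. The rule found 56 genes, of which 54 are protein-coding and 2 are pseudogenes, beside 21938 protein-coding genes on the assembled chromosomes. They comprise 6 genes for the linker histone H1, 15 for H2A, 15 for H2B, 9 for H3 and 11 for H4. The rule itself uses no measured value, but it was set with earlier results of these data known.

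Replication-dependent histone genes supply the bulk of the histones that package newly copied DNA, and their transcription is tied to S phase by NPAT, a coactivator that gathers at these clusters in the histone locus body. Their transcripts are unusual in lacking a poly(A) tail and end instead just after a short stem-loop, which is bound by the protein SLBP and trimmed with the help of the U7 snRNP. Most of the genes have no intron, and many H2A and H2B genes are arranged head to head and share 1 promoter stretch.

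The study followed stembryos, aggregates of mouse embryonic stem (mES) cells that elongate in culture after a pulse of the Wnt agonist Chiron, an inhibitor of GSK-3, given between 48 h and 72 h after aggregation. Regions bound by or carrying H3K27ac, PolII, PolII Ser2-p, NIPBL, RAD21 and CTCF were mapped at successive hours after aggregation, and 52 wild-type (wt) peak lists of these 6 antibodies were used out of 80 lists from 82 samples. Stembryos of 48 h were taken before the Chiron pulse and all later ones after it began, many stembryos were pooled in each library, and from 108 h onward only elongating ones were collected. Each time course had 1 library per stage except RAD21, which had 1 to 3, PolII Ser2-p, which had 3 at 144 h, and H3K27ac, which had numbered libraries at 96 h and 120 h besides the time course.

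H3K27ac is an acetylation of histone H3 at active promoters and enhancers, PolII is the core enzyme of messenger RNA synthesis in any state, and PolII Ser2-p is its elongating form. RAD21 belongs to cohesin, a ring-shaped complex that extrudes DNA loops, NIPBL loads cohesin and drives it, and CTCF is the DNA-binding protein at which extruding cohesin halts. H3K27ac and PolII Ser2-p were profiled by sonicated ChIP-seq, the other 4 by ChIP-M, in which a transposase adds the sequencing adapters. A region is 1 peak or several overlapping peaks of a list merged, and the window of a gene is its annotated body with 1 kb added on each side. A list holds only regions that passed the peak caller's threshold, so a missing region means that none was called. In bulk stembryos, fewer cells with a signal and less signal per cell cannot be told apart.

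The lists held between 3987 regions (PolII Ser2-p at 84 h) and 71196 regions (RAD21 at 132 h, replicate 2). The number of reads is not in the lists, and the lowest background of a list, 1.12 to 7.21 fragments per base, stands here for its depth. H3K27ac regions were present at 4 of 4 pluripotency genes (Nanog, Pou5f1, Zfp42, Esrrb) at 48 h, at 0 of 4 at 144 h and at 1 of 4 at 168 h. Of 5 posterior genes (T, Cdx2, Tbx6, Msgn1, Wnt3a), 3 had a region at 48 h, before the Chiron pulse, and 3 to 5 at every later stage. These counts did not separate the stages, but Cdx2 had no region at 48 h and one at every later stage. The NIPBL lists of 72 h and 84 h were short, with 6652 and 4888 regions against 18588 to 40490 later. The merged PolII Ser2-p list of 144 h combined 3 samples. RAD21 libraries of 1 stage differed widely at the histone genes, as given with the RAD21 counts.

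The members lay in 3 main blocks of chromosome 13 and 2 outlying places. The first block, chr13:21715763-21837530, held 19 genes, the second, chr13:22035164-22043676, held 5, and the third, chr13:23531050-23764406, held 29. The H2B gene Hist1h2ba and the H2A gene Hist1h2aa, both known from germ cells, formed a pair at chr13:23933773-23934851, and the pseudogene Hist1h2al stood alone at chr13:51202727-51203065. There were 13 head-to-head pairs with less than 1 kb between the starts, of which 12 joined an H2A gene to an H2B gene. The windows of 48 members overlapped the window of another member, so 1 region often counted for 2 genes.

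Promoter sequences from RefSeq (GRCm38.p6, 250 bases before to 50 after the start) were matched for 51 of the 56 members. The 4 below were chosen because the binding results turn on them. Hist1h2bk belongs to a head-to-head pair with regions of PolII and PolII Ser2-p in all of their lists, Hist1h2ba had no region in any list, Hist1h2bq is the copy of a second gene and cannot be mapped, and Hist1h4f had the highest correlation of NIPBL cover with stage. Capitals mark TATAAA (the letters of the TATA box, wherever they stand), CCAAT (the site of the factor NF-Y) and ATTTGCAT (the octamer, a site of OCT1) on either strand.
Hist1h2bk, chr13:22035571-22035870, plus strand: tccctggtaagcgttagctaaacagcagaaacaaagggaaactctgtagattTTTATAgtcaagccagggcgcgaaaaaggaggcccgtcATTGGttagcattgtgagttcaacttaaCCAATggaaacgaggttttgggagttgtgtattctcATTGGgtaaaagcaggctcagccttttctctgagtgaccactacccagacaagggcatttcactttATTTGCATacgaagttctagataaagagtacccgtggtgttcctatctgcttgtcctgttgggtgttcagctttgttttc
Hist1h2ba, chr13:23934107-23934406, minus strand: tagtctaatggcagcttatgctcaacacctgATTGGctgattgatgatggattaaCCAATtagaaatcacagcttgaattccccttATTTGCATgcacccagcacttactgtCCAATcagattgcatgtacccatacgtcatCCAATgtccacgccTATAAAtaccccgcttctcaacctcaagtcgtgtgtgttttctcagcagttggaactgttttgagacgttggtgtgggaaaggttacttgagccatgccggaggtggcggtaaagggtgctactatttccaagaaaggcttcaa
Hist1h2bq, chr13:21810150-21810449, minus strand: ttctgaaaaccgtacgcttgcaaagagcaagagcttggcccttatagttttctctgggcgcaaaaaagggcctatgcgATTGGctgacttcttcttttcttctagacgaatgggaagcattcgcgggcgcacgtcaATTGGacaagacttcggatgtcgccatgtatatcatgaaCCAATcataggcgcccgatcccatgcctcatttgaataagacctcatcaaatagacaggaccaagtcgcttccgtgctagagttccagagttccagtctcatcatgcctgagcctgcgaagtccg
Hist1h4f, chr13:23551619-23551918, minus strand: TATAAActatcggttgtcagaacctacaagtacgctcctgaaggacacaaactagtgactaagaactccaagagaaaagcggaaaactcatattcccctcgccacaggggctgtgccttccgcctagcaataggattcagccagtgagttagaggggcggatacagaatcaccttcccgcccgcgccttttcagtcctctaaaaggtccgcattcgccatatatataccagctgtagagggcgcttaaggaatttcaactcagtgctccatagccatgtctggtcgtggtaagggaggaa

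TATAAA stood in 31 of the 51 matched promoters, against 13.6% of the 32851 promoters in the table. A TATA box proper lies a short way upstream of the start of transcription, on the strand of the gene. Only 10 of the 51 had TATAAA on that strand with its first base 20 to 40 bases before the annotated start, against 1.99% of all promoters. None of the marked matches above stands there. That of Hist1h4f begins 250 bases before the annotated start, and that of Hist1h2bk is on the opposite strand, 198 bases before it. That of Hist1h2ba begins 94 bases before its annotated start, which is the ATG of its coding sequence. Where its RNA starts is not known here, so the count of 10 can miss promoters annotated in this way. CCAAT stood in 43 of 51, against 37.4% of all promoters, and it separated the families: all 6 H1, 13 H2A, 14 H2B and 7 H3 promoters held it, but only 3 of 11 H4 promoters. ATTTGCAT stood in 11 of 51, against 1.74% of all promoters, in 6 of 14 H2B and 5 of 13 H2A promoters and in none of H1, H3 or H4. The motifs do not overlap in their letters, both strands were searched, and a match is a description of the sequence and not evidence of a bound factor. The germ-cell gene Hist1h2ba held the letters of all 3 motifs, as did Hist1h2bk, so these letters did not separate a promoter without any region from one occupied in every PolII list.

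A stem-loop of 6 paired bases and 4 loop bases was found within 100 bases after the stop codon of all 54 coding members, 24 to 56 bases past the stop with a median of 31.5. Only 8 forms occurred, and the common ones are shown because they mark the 3' end of the RNA near which PolII Ser2-p is described further on. Capitals mark the paired stem.
Form of 33 members from H1, H2A, H2B and H3: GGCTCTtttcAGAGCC
Form of 8 members, among them Hist1h2bk and Hist1h2ba: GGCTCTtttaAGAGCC
Form of 7 members, all H4, among them Hist1h4f: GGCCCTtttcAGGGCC
Form of 2 H4 genes, Hist1h4j and Hist1h4b: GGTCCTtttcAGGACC
The other 4 forms had 1 member each, namely Hist1h4a, Hist1h4i, Hist1h3g and Hist1h2an.

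Histone genes are near copies of each other, and reads that map to several places were removed by the authors, so the windows were scored for the share of 40-base words found once in the genome. For 50 members this share was 54.2% or more. The other 6 formed a short stretch of duplicated genes in the first block. The shares were 0% for Hist1h2bq and Hist1h2br, 1.64% for Hist1h2ao, 4.53% for Hist1h4m, 1.27% for Hist1h2ap and 8.91% for Hist1h4n. The promoters of Hist1h2bq and Hist1h2br were 100% identical over their 300 bases.

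**Figure D1:**
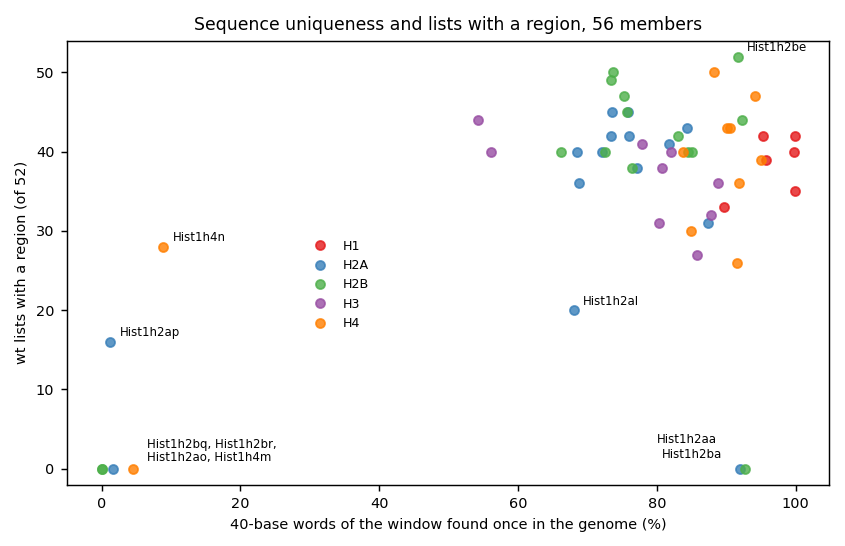
Each point is 1 of the 56 members, coloured by family. The x axis gives the percent of 40-base words of its window that occur once in the genome, and the y axis gives in how many of the 52 wt lists its window held a region. Of the 6 members with no region in any list, Hist1h2bq, Hist1h2br, Hist1h2ao and Hist1h4m have under 5% unique words, while Hist1h2aa and Hist1h2ba have over 90%.

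The window of 6 members held no region in any of the 52 lists. Of these, Hist1h2bq, Hist1h2br, Hist1h2ao and Hist1h4m had almost no uniquely mappable sequence, so nothing can be read from their absence. The remaining pair, Hist1h2ba (92.7% unique words) and Hist1h2aa (92.0%), could have been seen. Hist1h2ba and Hist1h2aa encode histones of the male germ line, and they were without a region of H3K27ac, PolII, PolII Ser2-p, NIPBL, RAD21 or CTCF at every stage.

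The third germ-cell gene, Hist1h1t, which encodes the testis-specific linker histone, is inside the third block. Its window held a region in 42 of 52 lists, among them all 8 PolII and all 5 PolII Ser2-p lists. No region of any of the 6 antibodies reached its gene body, however, and none reached the 1 kb on each side of its start. The regions of its window lay in the 1 kb past its 3' end, toward the H4 gene Hist1h4c, which held PolII and PolII Ser2-p regions in every list. The 3 germ-cell members were therefore alike in having no region at the gene itself.

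**Figure D2:**
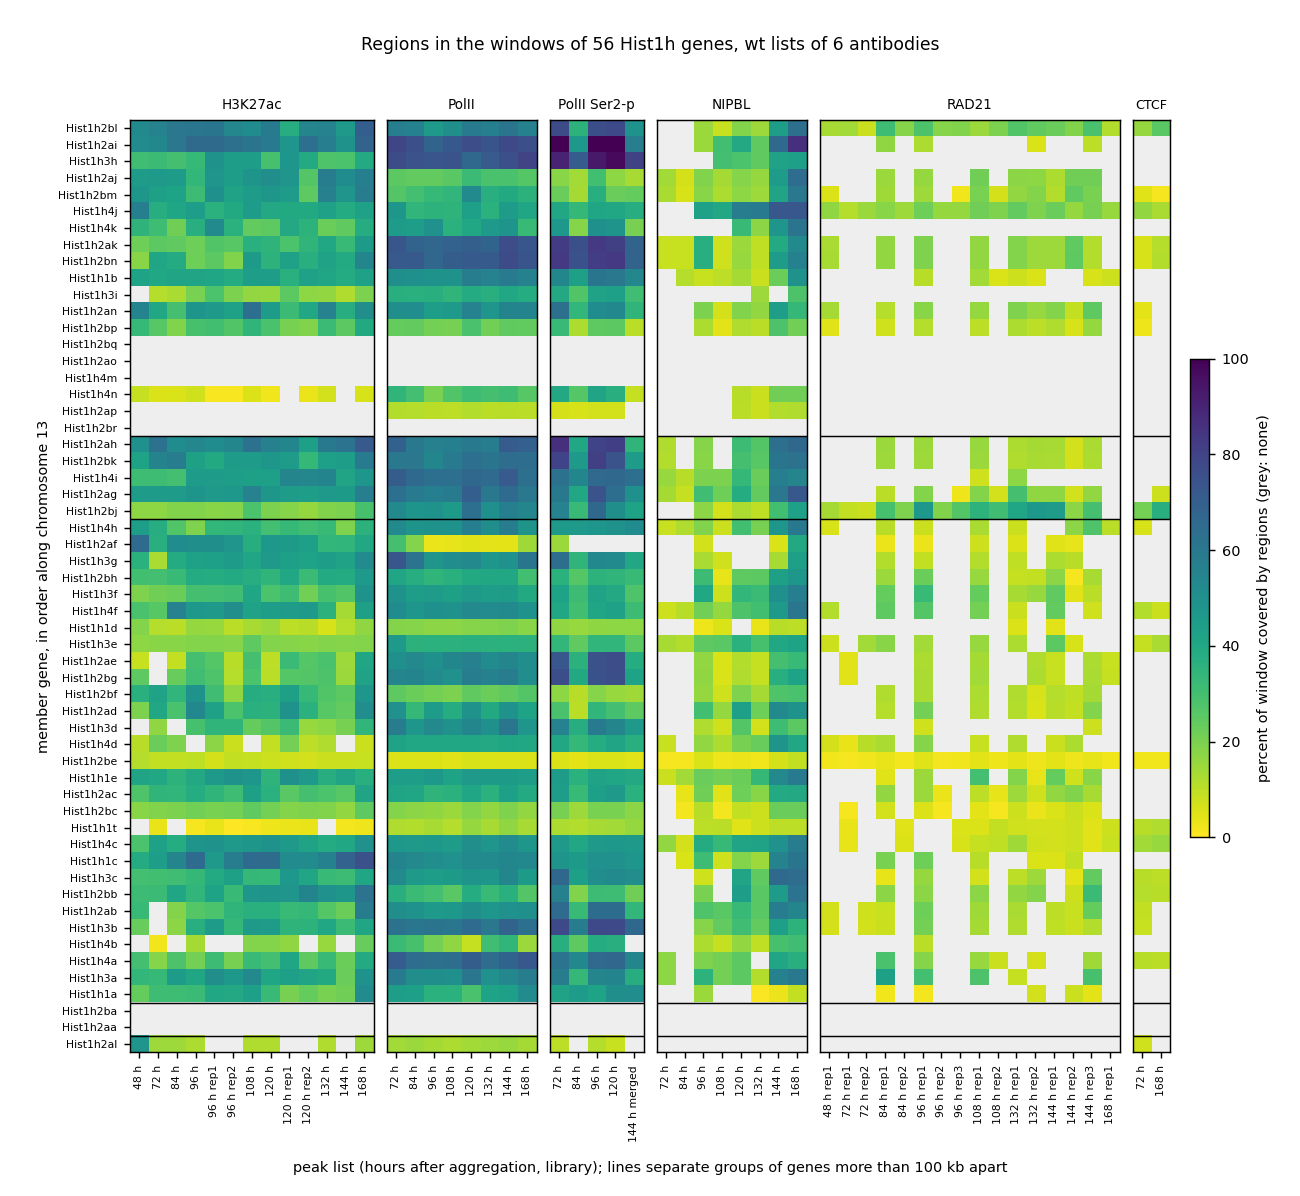
Each row is a member in order along chromosome 13 and each column a wt peak list, grouped by antibody and ordered by hours after aggregation. Colour gives the percent of the window covered by regions, from 0 to 100, grey marks none, and black lines separate blocks of genes. The PolII columns are filled at 50 members in all 8 lists, while the RAD21 columns alternate between libraries with many and with few filled members.

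PolII was the steadiest of the 6 signals at these genes. The windows of 50 of 56 members held a PolII region at all 8 stages and those of 6 at none, so no window went from occupied to empty or back. A window can hold a region of a neighbour. For Hist1h1t and Hist1h2ap, no PolII region reached the body or the 1 kb on each side of the start in any list. For Hist1h2af, none reached the body, and the 1 kb on each side of its start held one in 3 of 8 lists. Among all protein-coding genes 47.5% had a PolII region in every list and 35.7% in none. At the single stages, where the same 50 members were occupied, the share of all protein-coding genes was 61, 55.2, 52, 50.5, 55.3, 51.3, 56.6 and 56.2% in the lists of 72, 84, 96, 108, 120, 132, 144 and 168 h. Within 1 kb of the annotated start, 46 members had PolII in every list and 9 in none, against 42.4% and 44.3% of all genes.

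No member passed the test for a trend of PolII cover with stage, which is given further on. Hist1h1b, an H1 gene, had 50.3, 49.7, 48.9, 49.1, 58.0, 55.7, 59.4 and 56.1% of its window covered at 72, 84, 96, 108, 120, 132, 144 and 168 h. In the pair of Hist1h2ah and Hist1h2bk, the cover of Hist1h2bk was 60.0, 60.4, 54.1, 58.4, 63.4, 61.5, 64.2 and 64.4% at the same stages. In both genes the lists of 120 h and later were all above the earlier ones. For Hist1h2bk, rho with stage was 0.79 (exact permutation test, p = 0.0279, adjusted p = 0.737). For Hist1h1b, rho was 0.67 (exact permutation p = 0.0831, adjusted p = 1) and Pearson's r was 0.76 (exact permutation p = 0.0350, adjusted p = 0.864). Leaving out the first and last stages gave Hist1h1b a Pearson's r of 0.87. Hist1h2af, an H2A gene, and Hist1h4b, an H4 gene, varied more, with 2.96 to 29.4% and 8.84 to 34.0%.

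PolII Ser2-p, the elongating form, was the signal whose share of members in every list exceeded that of other genes by most. Regions were present at all 5 stages in 46 of 56 windows and at none in 6, whereas 11.3% of all protein-coding genes had one in every list and 44.5% in none. The lists of 72, 84, 96, 120 and 144 h held 50, 48, 49, 49 and 46 members, while their shares of all genes were 50.7, 14.9, 51.8, 41.9 and 18.8%. The short lists of 84 h and 144 h thus dropped most other genes and few histone genes. Within 1 kb of the start the counts were 44 in every list and 9 in none, against 5.76% and 55.5%.

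Other short genes had lower shares. Among 2337 other protein-coding genes of at most 3 kb, 211 (9.03%) had a PolII Ser2-p region in every list and 491 a PolII region. Histone genes on other chromosomes were like the members, since 13 of 14 (92.9%) of the Hist2h, Hist3h and Hist4h genes had PolII Ser2-p in every list, and the exception, Hist2h2aa1, had it in none. Members that missed a list were Hist1h2af, with PolII Ser2-p at 72 h only, and Hist1h4b, Hist1h2ap and the lone pseudogene Hist1h2al.

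H3K27ac marked most members at all stages. In the 9 lists of the time course, 38 of 56 windows held a region at every stage and 7 at none, and adding the 4 numbered lists left both counts as they were. The corresponding shares of all protein-coding genes were 52.8% and 23.1%, and those of other genes of at most 3 kb were 21.5% and 58.5%. The lists of 48, 72, 84, 96, 108, 120, 132, 144 and 168 h held 45, 45, 46, 48, 48, 49, 48, 45 and 49 members. The shares of all genes in the same lists were 70.7, 69.9, 66.3, 66.8, 63.5, 60.6, 61.8, 57.4 and 62.4%. The numbered lists held 47 members each, at 96 h (64.6 and 62.3% of all genes) and at 120 h (60.6 and 58.9%).

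H3K27ac cover differed between families and genes. Within 1 kb of the start, 37 members had it in every list and 9 in none, against 44.2% and 34.2% of all genes. Counting all 13 lists, H1 windows held a region in 96.2% of gene and list combinations and H3 windows in 96.6%, against 76.4% for H2A and 79.5% for H2B. The H2A and H2B families hold 4 of the 6 poorly mappable genes as well as Hist1h2aa and Hist1h2ba. Hist1h4j, an H4 gene with the highest rank among the members, had a lowest, median and highest cover of 35.9, 39.7 and 56.7% over 13 lists. Hist1h3i, an H3 gene, was at the low end with 0, 16.3 and 28.2%, the 0 falling at 48 h.

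The gene with a region in the most lists differed by family. Hist1h1e and Hist1h1t shared the most among the H1 genes, 42 of 52 lists each, though no region reached the body of Hist1h1t. Hist1h1d had the fewest with 33. Hist1h2ak and Hist1h2ag shared the most among the H2A genes with 45 each. Hist1h3e led the H3 genes with 44 (Hist1h3i had 27), and Hist1h4j the H4 genes with 50. Hist1h2be, an H2B gene, had a region in all 52. Its annotated model runs over 37455 bp and includes a CTCF site far from the histone coding part. When only its coding span with 1 kb on each side was used, it kept H3K27ac, PolII and PolII Ser2-p in every list but had RAD21 in 3 of 16 lists and CTCF in none.

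The height of the signal gave opposite pictures depending on the measure. Ranked by fold enrichment, the ratio of fragments at the summit to the local background, the median member region stood at percentile 12.4 to 29.2 of its PolII list. Ranked by the number of fragments at the summit (pileup), the median of the highest summits in the member windows stood at percentile 99.5 to 99.9. Peaks of −log10 p of 250 or more had no solved pileup and were left out of that rank. The local background at the members was 32.6 to 97.01 times the lowest of the list, against 2.06 to 3.73 times at protein-coding genes as a group, so the ratio was low where the surroundings themselves carried many fragments.

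The windows of the 2 pseudogenes show both cases. Hist1h2aj stands inside the first block, head to head with the H2B gene Hist1h2bm. No PolII region reached its body in any of the 8 lists, the region in its window reached the body of Hist1h2bm in all 8, and the values of the pair are those of 1 shared region. The PolII fold enrichment of that region was 2.26, 3.43, 2.97, 3.21, 3.59, 2.93, 3.28 and 2.39 from 72 h to 168 h. Hist1h2al stands alone, and its PolII fold enrichment was 36.6, 37.9, 32.9, 29.9, 37.9, 29.1, 38.9 and 32.6. The fold enrichment at the lone copy was thus higher in all 8 lists without overlap. By pileup the order was not the same: at 96, 108, 120, 132 and 168 h, where both could be solved, the region shared by Hist1h2aj and Hist1h2bm had 188, 134, 348, 222 and 168 fragments over a background of 62.7, 51.2, 99.9, 80.6 and 79.9, and Hist1h2al had 105, 125, 184, 150 and 202 fragments over 2.23, 3.21, 3.89, 4.197 and 5.23.

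Besides PolII, Hist1h2al had H3K27ac in 8 of 13 lists, PolII Ser2-p in 3 of 5 and CTCF in 1 of 2, and NIPBL and RAD21 in none. Where present, its H3K27ac and PolII Ser2-p regions stood at a median percentile of 83.1 and 94.7 of their lists by fold enrichment. Among members inside the blocks, the highest fold enrichment of PolII belonged to Hist1h4n and Hist1h2ap, which share 1 region, with 21.8 to 25.8 over 8 lists. Both have mostly repeated sequence, with 8.91 and 1.27% unique words, and the part of mappability in this rank was not tested.

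The other antibodies differed in rank. For H3K27ac the median percentile of members was 40.3 to 67.0 by fold enrichment and 90.8 to 97.8 by pileup, with a background 6.97 to 11.3 times the lowest. For PolII Ser2-p it was 63.2 to 86.2 and 94.8 to 99.8, for NIPBL 14.6 to 76.7 and 57.2 to 99.9, for RAD21 6.39 to 52.3 and 12.5 to 74.3, and for CTCF 45.6 to 59.9 and 39.6 to 59.4. The members were near the top of the PolII and PolII Ser2-p lists by pileup, and near the middle of the CTCF lists by either measure. In the RAD21 lists they were in the lower or middle part by fold enrichment, and by pileup they reached the upper part in some lists.

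**Figure D3:**
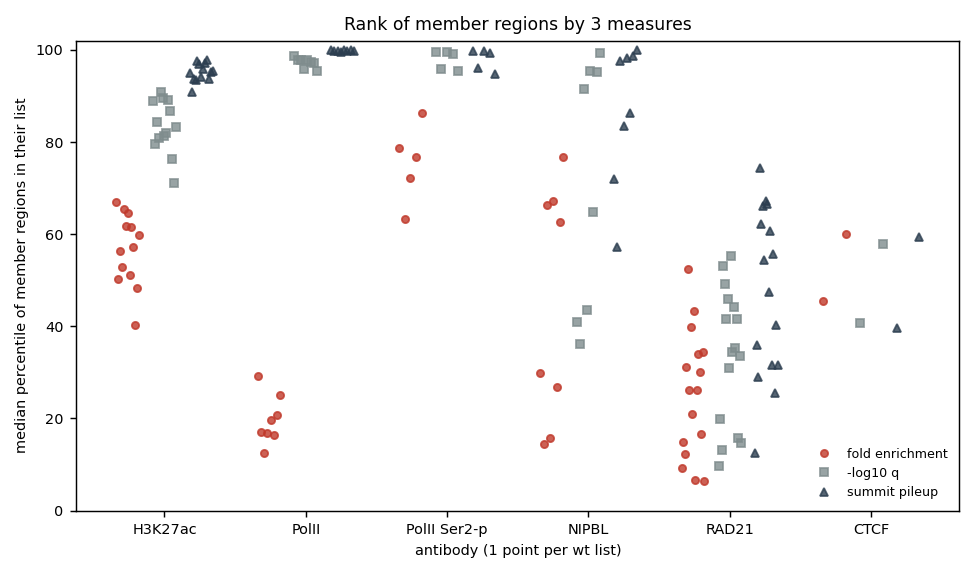
Each point is 1 wt list, placed by antibody on the x axis. The y axis gives the median percentile of the members' strongest regions among all regions of that list, by fold enrichment (circles) and −log10 q (squares). Triangles give the median percentile by summit pileup, among the summits of the list whose pileup could be solved. For PolII the circles lie between 12.4 and 29.2 and the triangles between 99.5 and 99.9.

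The regions had a fixed order along the genes. For the 48 coding members with at least 50% unique words, the share of gene and list combinations covered by a region was read at each distance from the coding start. PolII was highest 100 bases before the coding start, at 88.0%, and NIPBL and RAD21 were highest at the same place, at 56.5% and 25.9%. H3K27ac was nearly absent there, at 3.01%, and covered 66.2% of combinations 700 bases before and 68.1% 400 bases after the coding start. PolII Ser2-p rose along the gene, from 46.7% at 100 bases before to 86.7% at 500 bases after the coding start.

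PolII regions were about as frequent at the end of these short genes as at their start. At the last coding base, PolII covered 84.6% of combinations and PolII Ser2-p 83.8%, and 500 bases past it they still covered 69.8 and 67.9%. At the coding end of all other protein-coding genes the shares were 0.954 and 1.95%, against 28.0 and 12.6% at their coding start. For other genes of at most 3 kb they were 3.41 and 3.51% at the end, against 17.4 and 10.3% at the start. These sets include genes without any region: 69.1% of the short genes had no PolII and 71.1% no PolII Ser2-p in any list, which lowers their shares. The stem-loops lie between the coding end and that last position. In between, PolII fell from 85.4% at the coding start to 45.8, 34.9 and 46.1% at 100, 200 and 300 bases after it. At 200 bases after the coding start, 12.5% of members had a unique 40-base word, against 100% at 100 bases before it, and the part of mappability in the dip was not tested. Positions upstream also hold the body of the partner gene in the 13 pairs, whose starts are 175 to 659 bp apart.

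**Figure D4:**
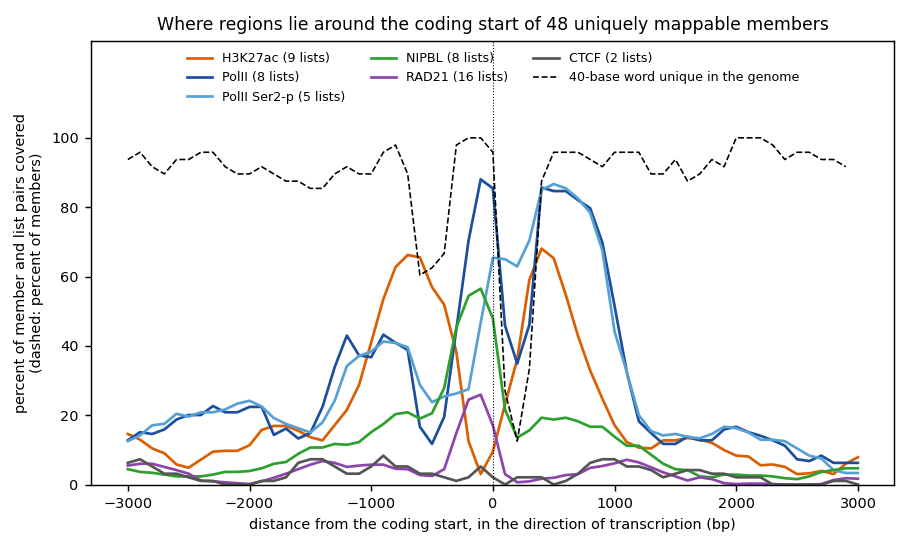
The x axis is the distance from the coding start in bp, in the direction of transcription, for 48 uniquely mappable coding members. The y axis gives the percent of member and list combinations covered by a region of each antibody, and the dashed line gives the percent of members whose 40-base word at that position is unique. PolII, NIPBL and RAD21 peak 100 bases before the coding start, H3K27ac falls to 3.01% there between its maxima on either side, and the unique share drops to 12.5% at 200 bases after the start.

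NIPBL appeared at most members only after 84 h. The lists of 72, 84, 96, 108, 120, 132, 144 and 168 h held 17, 16, 44, 39, 44, 46, 48 and 49 members. The same lists reached 22.7, 16.9, 63.3, 46.2, 44.2, 48.3, 62 and 60.8% of all protein-coding genes. The step between 84 h and 96 h was therefore shared with genes at large. In every list 12 members were occupied and in none 7, against 10.5% and 29.4% of all genes and 4.45% and 67.3% of other genes of at most 3 kb. Without the 72 h and 84 h lists 35 members were occupied in every list, beside 35% of all genes. Within 1 kb of the start the counts were 11 and 9, against 7.5% and 43%.

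NIPBL cover rose with stage at 8 of 48 members tested (16.7%), and at 6.54% of the 15482 protein-coding genes tested, with no member and no gene falling (0%). The test was an exact two-sided permutation test of Spearman's rho over 8 stages, adjusted over all genes by the Benjamini-Hochberg method, and the adjusted p of the 8 was 0.034 to 0.041. The 8 were the H4 genes Hist1h4f, Hist1h4c, Hist1h4j and Hist1h4d, the H3 genes Hist1h3e and Hist1h3b, the H1 gene Hist1h1e and the H2A gene Hist1h2ai. Without adjustment, 38 of 48 members (79.2%) had p below 0.05, beside 42.2% of all genes. The genome covered by NIPBL regions itself had a rho of 0.81 with stage.

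Hist1h4f had the highest rho, 0.98 (exact permutation test, adjusted p = 0.034). Its NIPBL cover was 7.57, 10.9, 21.5, 15.9, 27.8, 30.4, 46.5 and 60.6% from 72 h to 168 h. Pearson's r was 0.96 (exact permutation p = 0.000124), and 0.92 without the 72 h and 168 h lists. The cover was lowest in the first list and highest in the last, with 1 step down at 108 h.

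Hist1h3e, an H3 gene, had a cover of 13.3, 11.5, 24.9, 25.8, 36.0, 29.0, 40.3 and 42.2% at the same stages (rho = 0.95, exact permutation test, adjusted p = 0.034). Hist1h4c had 16.1, 6.45, 38.5, 33.1, 41.6, 42.4, 49.3 and 57.9% (rho = 0.95, same adjusted p). Hist1h4j had 0, 0, 42.8, 40.01, 57.9, 58.3, 72.8 and 72.7% (rho = 0.95) and Hist1h4d had 8.38, 0, 16.3, 12.5, 20.3, 23.3, 48.3 and 40.3% (rho = 0.93). In each of them the 2 earliest lists were the lowest and the 2 latest the highest. For Hist1h3e, Hist1h4c, Hist1h4j and Hist1h4d, Pearson's r was 0.93, 0.90, 0.92 and 0.88, and it was 0.89, 0.83, 0.91 and 0.90 without the first and last lists.

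These calls depended on how many regions each list held. With every NIPBL list limited to the length of the shortest, 0 members and 0 genes passed the same exact permutation test, and the median rho was 0.67 for members and 0.08 for all genes. With 1 stage left out, 0 members passed except without 96 h, where 32 of 48 passed, all rising, beside 39% of 14605 genes rising and 0.0411% falling. With 7 stages the smallest possible two-sided p is 0.000397.

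H3K27ac, PolII and RAD21 cover gave no call at any member. For H3K27ac, 0 of 47 members passed the exact permutation test after adjustment, while 0.083% of 16861 genes rose and 1.83% fell, and 10 members (21.3%) had an unadjusted p below 0.05, beside 25.7% of all genes. The median rho was 0.32 for members and −0.40 for all genes. For PolII, 0 of 48 members and 0 of 14107 genes (0% rising, 0% falling) passed, with 2 members (4.17%) below an unadjusted p of 0.05 beside 5.81% of genes. For RAD21, 0 of 43 members and 0 of 16679 genes (0% rising, 0% falling) passed, with 4 members (9.30%) beside 13.6%, and without the 168 h library 15 of 43 members passed, all rising, beside 25.7% of 16662 genes rising and 0.264% falling.

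RAD21 counts differed widely between libraries of 1 stage. There were 15 members with a region at 48 h (49.7% of all genes), 10 and 8 in replicates 1 and 2 at 72 h (51.8 and 42.2%), 35 and 6 at 84 h (57.1 and 56.2%), and 40, 6 and 8 in the 3 replicates at 96 h (67.1, 52.5 and 53.6%). Later there were 39 and 12 at 108 h (62.9 and 61.8%), 36 and 31 at 132 h (63.2 and 67.8%), 33, 33 and 36 at 144 h (62.4, 61.5 and 64.4%) and 9 at 168 h (49.1%). At 84, 96 and 108 h replicate 1 stood far above the other libraries of its stage, while the share of all genes differed less between them.

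The same libraries differed at other promoters. Of 5332 gene starts with PolII and no CTCF, RAD21 regions covered 45.4 and 7.56% in replicates 1 and 2 at 84 h, 76.4, 7.11 and 4.71% in the 3 replicates at 96 h, and 70.1 and 28.1% at 108 h. Of 38 ribosomal protein genes of this kind, the shares were 39.5 and 2.63% at 84 h, 68.4, 5.26 and 2.63% at 96 h, and 76.3 and 15.8% at 108 h. The share of regions outside CTCF sites was 22.3 and 14.7% at 84 h, 30.6, 11.7 and 13.6% at 96 h, and 29.5 and 22.6% at 108 h. The difference between replicates was thus not particular to histone genes, and its source was not tested.

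**Figure D5:**
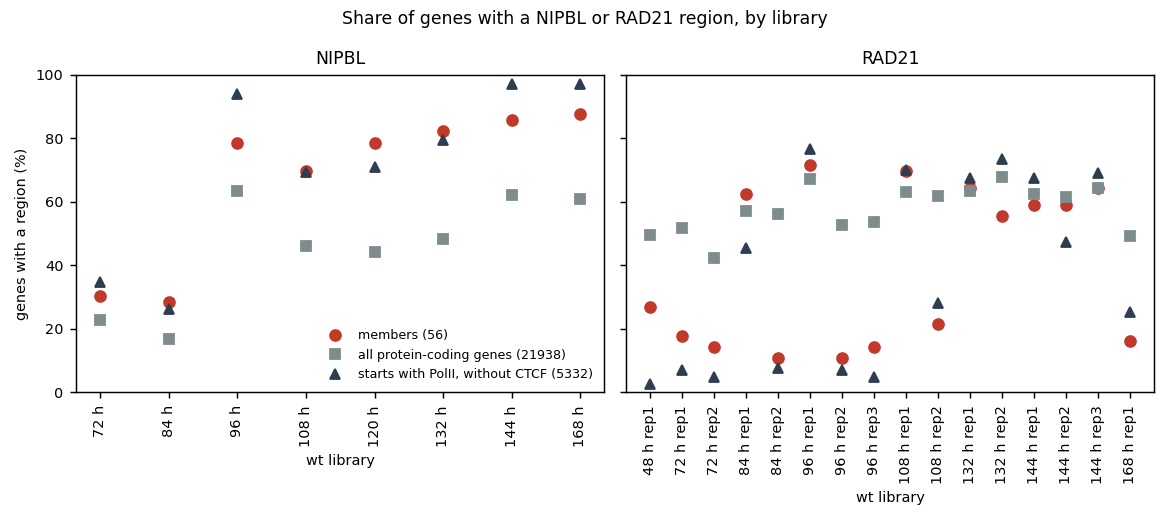
Each column of the x axis is a wt library, NIPBL on the left and RAD21 on the right, ordered by hours after aggregation. The y axis gives the percent of genes with a region for the 56 members (circles), 21938 protein-coding genes (squares) and 5332 starts with PolII and without CTCF (triangles). In RAD21 the circles and triangles move together between replicates of 84 h, 96 h and 108 h, while the squares stay between 42.2 and 67.8%.

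RAD21 regions in every library were about as rare at these genes as at other short genes. There were 3 members (5.36%) with a RAD21 region in all 16 lists and 12 (21.4%) with none. Of all protein-coding genes, with their longer windows, 34.6% had one in every list and 24% in none, and of other genes of at most 3 kb 6.20% and 62.9%. Within 1 kb of the start it was 1 member in every list and 15 in none, against 6.24% and 41.9%. The 3 members were Hist1h2bl, Hist1h4j and Hist1h2be, and each had a CTCF site in both CTCF lists.

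CTCF regions were present at 20 members at 72 h and 15 at 168 h, while 62.3 and 60.6% of all genes had one. In both lists 14 members had a region and in none 35, which is 25% and 62.5% of them. The shares were 57.8% and 34.9% for all genes and 17.4% and 76.3% for other genes of at most 3 kb, so the members lay below the first and above the second in CTCF in both lists. Near the start it was 10 and 38, against 20% and 71.6% of all genes. The member windows held 18 CTCF sites, of which 11 were in both lists, 3 in all 16 RAD21 lists and 4 in none of them. Of the CTCF sites in all RAD21 lists, the one of Hist1h2bl at chr13:21714748-21715369 had a CTCF fold enrichment of 9.56 and 8.44 at 72 h and 168 h. The one of Hist1h4j at chr13:21734083-21734536 had 10.8 and 11.7, and that of Hist1h2be at chr13:23597685-23598532 had 10.7 and 13.3.

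Most other genes within the main blocks had no called region of PolII, PolII Ser2-p or H3K27ac. The uniqueness of their sequence was not scored, so a missing region does not show that a gene was silent. The 3 main blocks hold 49 other protein-coding genes, many of them vomeronasal receptor (Vmn1r), Slc17a and Btn genes, of which 3 had PolII in every list and 41 in none. PolII Ser2-p was in every list at 0 and in none at 45, and H3K27ac was in every list at 5 and in none at 33. Of all 230 neighbours between the first and the last member, 83 had PolII and 17 had PolII Ser2-p in every list. The shares of protein-coding genes other than the members were 47.4% for PolII, 11.1% for PolII Ser2-p and 52.7% for H3K27ac.

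The genes that make and process histone mRNA were read in the same lists. Of 25 such genes, among them Npat, Casp8ap2 and Lsm11 of the histone locus body, Slbp, and the H4 promoter factor gene Hinfp, 25 had H3K27ac in every list and 24 had PolII. PolII Ser2-p was in every list at 9 of them (36%), NIPBL at 4, RAD21 at 8 and CTCF at 17. Among all protein-coding genes other than the members, 52.7% had H3K27ac, 47.4% PolII and 11.1% PolII Ser2-p in every list. NIPBL was in every list at 10.4% of these other genes, RAD21 at 34.7% and CTCF at 57.9%. For NIPBL, RAD21 and CTCF the counts of the 25 genes were near these shares. Of 11 genes for replacement histones, which are made outside S phase and include H3f3a, H3f3b and H2afz, 10 had H3K27ac, 10 PolII, 6 PolII Ser2-p, 4 NIPBL, 2 RAD21 and 9 CTCF in every list.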

How the data were processed

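The authors trimmed reads with cutadapt 1.16, mapped them to mm10 with Bowtie2 2.3.4.1, kept properly paired fragments of mapping quality 30 or more with SAMtools 1.8, and called peaks on each library without input with MACS2 2.1.1.20160309 (the 3 PolII Ser2-p samples of 144 h as 1 list). For each peak the deposited values are a score, a fold enrichment (the ratio of pileup to local background), and the −log10 p-value and −log10 q-value. These were used within a list only. Removing fragments that map to several places lowers the signal of near-identical genes.

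Peaks on the 21 assembled chromosomes were merged into regions with Python 3.11.15, numpy 2.4.6 and scipy 1.17.1. Gene windows (body and 1 kb on each side, 1 base of overlap) came from GENCODE M21, and cover is the percent of a window inside regions. Pileup and background were solved from fold enrichment and −log10 p within 0.001, except for peaks of −log10 p of 250 or more. Trends were tested by exact permutation of Spearman's rho over stages, with Benjamini-Hochberg adjustment over all protein-coding genes with a region, at 0.05, after the step was checked on simulated data. With 1 library per stage, counts of members carry no replicate error, members are not replicates, and no test over the list was made. Values in every list were given for the germ-cell genes, the genes with the most and the fewest lists in each family, up to 5 genes called in a trend and the highest-ranked gene per antibody. Genes named besides these (such as Hist1h1b, Hist1h2bk, Hist1h2aj, Hist1h2af and Hist1h4b), the limit to uniquely mappable members, and the 49 neighbours within the blocks were chosen after their values were seen. The members and lists were chosen with earlier results of these data known.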

Additional observations from a re-analysis of the deposited data

Results flagged for a closer look

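Peak lists of edited stembryos were outside the comparisons made here. In the CTCF list of Del(CBS1-5) stembryos at 96 h, 45 of 56 members had a region, and in that of Ins(2xCBS-d4d8) stembryos at 144 h, 40 of 56 had one, against 20 and 15 in the wt lists. These were picked out because they exceed the wt counts. The CTCF lists of Del(CBS1), Del(CBS1-2), Del(CBS2) and Del(CBS4) stembryos held 8, 9, 12 and 17 members. All protein-coding genes had a CTCF region in 57.5 and 54.5% of cases in the lists with 45 and 40 members, and in 55.2, 55.7, 51.6 and 40.7% in the other 4. At 5332 starts with PolII and no CTCF in wt, the share with a region was 10.4 and 33.6% in the lists with 45 and 40 members, and 1.67, 0.863, 3.84 and 6.002% in the others. Each genotype has 1 such list, so the difference has no replicate check and was not tested.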

How the results depend on the processing

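The counts of members occupied in every list or in none moved by over 1.5 times as follows. With the gene body alone, H3K27ac had 23 in every list and 12 in none, PolII 10 and PolII Ser2-p 11 in none, and NIPBL 4, RAD21 1 and CTCF 4 in every list. With 5 kb on each side, NIPBL had 20, RAD21 7 and CTCF 27 in every list, and CTCF 19 in none. Near the start alone RAD21 had 1 in every list. With −log10 q of at least 5, NIPBL had 1 and CTCF 9 in every list. With equal list length NIPBL had 3, and without its 72 h and 84 h lists 35. Among the 50 members with at least 50% unique words, a set chosen after seeing the data, 2 had no H3K27ac, 2 no PolII, 2 no PolII Ser2-p, 3 no NIPBL and 6 no RAD21.

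The rank of member regions, as the median over lists, moved from 57.3 by fold enrichment to 83.3 by −log10 q and 95.1 by pileup for H3K27ac, from 18.3 to 97.6 and 99.8 for PolII, from 76.7 to 99.0 and 99.4 for PolII Ser2-p, from 46.2 to 78.2 and 91.9 for NIPBL, and from 26.1 to 50.9 by pileup for RAD21.

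For trends, H3K27ac called 0 members in the main setting (14 of 16861 genes rising and 309 falling), 1 member with 5 kb on each side and 3 by Pearson's r. The genes called under the last settings are not counted here, so neither count can be set against genes at large. NIPBL called 8 members (1012 genes), 4 (393 genes) with −log10 q of at least 5, 0 with equal list length, 33 (2982 genes) by Pearson's r, and 0 to 32 with 1 stage left out, the 32 (5697 genes) without 96 h. RAD21 called 0 to 15 members with 1 stage left out, the 15 (4323 genes) without 168 h. The replicate block called 0 RAD21 members, as did the fit without it. Of 31 same-numbered pairs of libraries from different stages, 18 had a correlation of their deviations from the stage mean above 0.1. The median was 0.27, in a range of −0.13 to 0.55. The labels do not say whether the numbers pair libraries, and this was not tested. The cause of each move was not tested, other than fewer stages or regions. Of 283 recomputed counts and ranks, 239 stayed within 1.5 times or 1 SD and 44 moved. Direction was read only for the NIPBL correlation of the 8 called members. There, 41 recomputed values kept the call and 79 lost it, and all kept their sign. Depth is known only through the background, and regions below the calling threshold cannot be seen.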

Other observations

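The repressive mark H3K27me3 was nearly absent from the histone genes. In its 8 lists, wt and Del(CBS1-5), 0 or 1 of 56 members had a region, while 18.4 to 25.9% of all protein-coding genes did. Of 5332 starts with PolII and no CTCF in wt, 7.37 to 14.2% had one. The 56 include the poorly mappable members. The factor CDX2 had regions at 0 members at 72 h, 4 at 96 h and 2 at 120 h, beside 0.337, 7.84 and 4.26% of all genes. H3K27ac lists of Del(CBS1) and Del(CBS1-2) stembryos held 48 or 49 members each, beside 62.1 to 64.9% of all genes. RAD21 lists held 14 and 9 members in Del(CBS1) at 96 h (58.7 and 59.9% of all genes). The RAD21 list of Del(CBS1-5) at 120 h held 38 (64.8%). At the 5332 starts with PolII and no CTCF in wt, the shares in these RAD21 lists were 18.8, 14.9 and 70.0%.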
